A study of Homo sapiens with 8 samples.

Results

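Solute carriers, the membrane proteins that move nutrients, ions and metabolites across cell and organelle membranes, were followed in THP-1, a human acute monocytic leukaemia line, after 5 h with an inhibitor of the p21-activated kinases (PAKs). The genes were chosen by symbol: every named gene of the deposited table written as SLC, a family number, A and a member number. This gave 17 of 14884 named genes, each measured by 1 probe. IPA-3 at 6 µg/mL, an allosteric PAK inhibitor, was applied to 2 samples, FRAX-597 at 2 µg/mL, an ATP-competitive one, to 2, and an equal volume of the solvent DMSO to 4. All 8 RNA samples came from THP-1 cells grown under one protocol and were labelled with biotin for 1-colour Affymetrix arrays. Whether arrays of one group stem from separate cultures is not stated in the labels, and the p-values below cover array-to-array spread that may be technical. THP-1 is a single leukaemia line, which limits it as a model.

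Solute carriers are grouped by sequence into numbered families, and a family often shares a type of cargo. Families SLC1, SLC3, SLC6, SLC7, SLC36, SLC38 and SLC43 are largely amino acid carriers, SLC2 and SLC5 carry sugars, SLC30 and SLC39 move zinc, and SLC25 serves the inner mitochondrial membrane. In leukaemia cells, import of amino acids and glucose supports growth, and export of amino acids from lysosomes feeds the nutrient sensing of mTORC1. Of the 17 genes, 1 belonged to the amino acid families (SLC38A12), 2 to the mitochondrial family (SLC25A15 and SLC25A2), and 0 each to the glucose and zinc families. The annotation used here gives no gene name for 37519 of the 53617 probes, so these counts show which probes carry a symbol and not what the array measures. The planned contrast between those families could therefore be described for these 3 genes only, and other members of the 4 classes are not analysed here. The other 14 genes were SLC33A2, SLC49A3, SLC49A4, SLC60A1, SLC60A2, SLC61A1, SLC66A1, SLC66A2, SLC66A3, SLC67A2, SLC68A1, SLC71A1, SLC71A2 and SLC75A1. Most of these were long known under other names, as MFSD or PQLC genes, and the cargo of several is unsettled.

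The start regions of SLC38A12, SLC25A15 and SLC66A1 are shown because these were the 3 solute carriers whose level with IPA-3 differed from DMSO at an unadjusted p under 0.05. Each line gives the 250 bases before the annotated gene start, 5′ to 3′ on the plus strand, from RefSeq on GRCh38.p14. They lie at chr17:74776249-74776498 for SLC38A12, chr13:40789361-40789610 for SLC25A15 and chr1:19312076-19312325 for SLC66A1. Capitals mark matches, on either strand, to the core of the antioxidant response element, TGACNNNGC, which NRF2 binds.

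SLC38A12: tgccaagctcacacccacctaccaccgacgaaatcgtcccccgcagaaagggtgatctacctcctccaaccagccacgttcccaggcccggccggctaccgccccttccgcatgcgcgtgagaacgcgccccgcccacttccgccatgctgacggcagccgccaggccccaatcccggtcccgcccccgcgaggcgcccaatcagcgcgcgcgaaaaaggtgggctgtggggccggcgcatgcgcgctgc
SLC25A15: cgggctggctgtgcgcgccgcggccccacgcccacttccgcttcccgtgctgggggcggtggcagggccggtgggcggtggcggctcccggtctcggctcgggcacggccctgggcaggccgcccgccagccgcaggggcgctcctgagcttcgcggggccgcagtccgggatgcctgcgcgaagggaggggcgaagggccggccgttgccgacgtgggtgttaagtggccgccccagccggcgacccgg
SLC66A1: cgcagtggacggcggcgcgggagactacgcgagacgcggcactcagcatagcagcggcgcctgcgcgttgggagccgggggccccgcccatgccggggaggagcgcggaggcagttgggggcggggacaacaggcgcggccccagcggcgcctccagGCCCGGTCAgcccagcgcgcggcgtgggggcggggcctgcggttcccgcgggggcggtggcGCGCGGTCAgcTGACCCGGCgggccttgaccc

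SLC66A1 held 3 such matches, at bases -93 to -85, -32 to -24 and -21 to -13 counted from the gene start, and the other two start regions held none. Among all 35116 start regions of the same length in the table, 10.9% held at least 1. The table held 14 of the 17 solute carriers, and 3 of these 14 had a match: SLC66A1, SLC68A1 and SLC71A2. The ATF4 element, searched as TGATGNAA on both strands, was in 0 of the 14 and in 3.14% of all start regions. The E-box CACGTG, which reads the same on both strands and is bound by MYC and TFEB, was in SLC60A2 alone of the 14 and in 6.34% of all. No 2 of these matches overlapped in SLC66A1. SLC25A2, SLC33A2 and SLC66A2 were not matched. A match is a description of letters and not evidence of binding.

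The deposited log2 values fell into 2 sets of 4 arrays with different scales, which carry no label. DMSO 1, DMSO 2 and the IPA-3 arrays had medians over all probes from 5.51 to 5.55, and DMSO 3, DMSO 4 and the FRAX-597 arrays from 6.00 to 6.05. Each compound was therefore compared with the 2 DMSO arrays of its own set. All 17 genes lay above the lower quartile of all probes on every array, which is not a background call. Of 21 monocytic markers 13 were measured, and 8 of them, among them TYROBP, PRTN3, AZU1 and LYZ, lay above the upper quartile in the mean. CD14, FCN1, S100A8, S100A9 and MPO did not, with means from 6.16 to 6.80. The T cell marker CD5 (6.82) and the B cell marker PAX5 (6.78) had like means. The summed log2 level of the 13 was 112.9 to 116.8 over the arrays. In the mean over arrays, the measured fibroblast markers DCN and LUM lay below the lower quartile, with sums from 6.19 to 8.27. LUM lay above the array's own lower quartile on DMSO 3 (4.73 against 4.64) and FRAX-597 2 (4.81 against 4.7). The 3 T cell, 2 B cell and 2 erythroid markers lay, in the mean, below the upper quartile. Of 5 epithelial markers KRT18 lay above it, with sums from 31.0 to 33.3. Because these are bulk RNA samples, fewer cells of a type and less RNA per cell cannot be told apart.

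With IPA-3, levels of the solute carriers lay mostly below those of DMSO 1 and 2, by small amounts. No solute carrier passed the test over all genes: 0 of 17 reached a Benjamini-Hochberg adjusted p under 0.05 in limma, against 0.0336% of all genes. An unadjusted p under 0.05 was found for 3 of 17 (SLC38A12, SLC25A15 and SLC66A1), against 7.21% of all genes; all 3 were lower, against 4.11% of all genes that were lower at that level. The median log2 change over the 17 was -0.14, compared with -0.02 over all 14884 genes. Of the 17 changes 14 were below 0, compared with 55.6% of all genes. Both IPA-3 arrays lay below both DMSO arrays for 10 of the 17, against 28.3% of all genes, and above them for 0 of 17, against 19.3%. These counts describe the list and were not tested. The count of 3 fell under quantile normalization and when any single DMSO or IPA-3 array was left out. In some other fits it rose. The share of all genes in those fits was not computed.

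SLC38A12, long named TMEM104 and placed by its symbol in the SLC38 family of amino acid transporters, had the lowest change with IPA-3 in the fit to all arrays, but not without IPA-3 1 (SLC25A15) or with the DMSO arrays pooled (SLC33A2). Its log2 values were 8.48 and 8.58 in DMSO 1 and 2, and 7.74 and 7.88 in IPA-3 1 and 2. The IPA-3 arrays lay close together, well below both DMSO arrays, without overlap. The means were 8.53 ± 0.08 and 7.81 ± 0.10 (SD, n = 2 each), so the level with IPA-3 was 0.608 of that in DMSO. The log2 change was -0.72 (SE 0.25; 95% confidence interval -1.30 to -0.13; limma adjusted p = 0.625). The SE takes its spread from both array sets, and SLC38A12 varied widely in the second. When only the arrays of the IPA-3 set entered the fit, the SE was 0.10 and the limma adjusted p 0.06. That fit called many more of all genes for IPA-3 than the fit to all arrays did. The fall in adjusted p was therefore not confined to SLC38A12. With DMSO 3 and FRAX-597 1, and DMSO 4 and FRAX-597 2, taken as blocks, the SE was also 0.10 and the gene passed (adjusted p = 0.0382). That replicate block was read from the values and not from the labels, so the pass is no separate support. With the block, limma called 72 of all genes for IPA-3, compared with 5 without it.

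**Figure D1:**
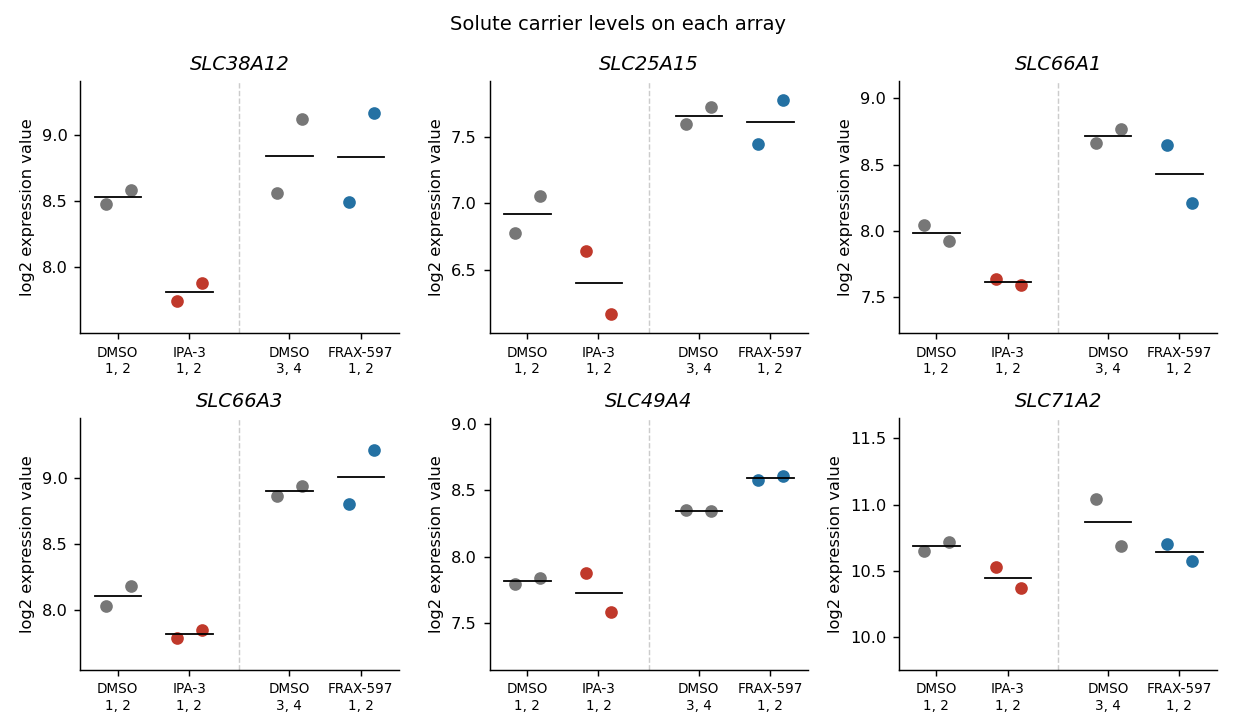
Log2 expression values of 6 solute carriers on each of the 8 arrays (grey DMSO, red IPA-3, blue FRAX-597), with a line at each group mean and a dashed line between the array sets; every panel spans the same range of log2 units. SLC38A12 lies at 7.74 and 7.88 with IPA-3, below 8.48 and 8.58 in DMSO 1 and 2, while its FRAX-597 values of 8.49 and 9.16 spread as widely as the 8.56 and 9.12 of DMSO 3 and 4.

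The 2 members of the mitochondrial family carry ornithine. SLC25A15 (ORC1) exchanges ornithine for citrulline across the inner mitochondrial membrane as part of the urea cycle, and its loss causes a hyperammonaemia syndrome. Its values were 6.78 and 7.06 in DMSO 1 and 2, and 6.64 and 6.16 with IPA-3. The groups did not overlap, but IPA-3 1 lay only slightly below DMSO 1, and IPA-3 2 stood lowest. The log2 change was -0.52 (SE 0.20; interval -0.98 to -0.06; limma adjusted p = 0.654). Without IPA-3 2 it was -0.28, and without IPA-3 1 it was -0.76. SLC25A2 (ORC2), an intronless relative with a similar cargo, had values of 6.07 and 6.43 in DMSO and 6.27 and 6.46 with IPA-3. These groups overlapped, with a change of 0.11 (SE 0.26; interval -0.48 to 0.71).

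SLC66A1 (PQLC2) exports cationic amino acids from lysosomes, and SLC66A2 and SLC66A3 are its relatives in the PQ-loop family. SLC66A1 had values of 8.05 and 7.93 in DMSO 1 and 2, and 7.64 and 7.59 with IPA-3. Both IPA-3 arrays lay below both DMSO arrays, with a log2 change of -0.37 (SE 0.15; interval -0.73 to -0.01; limma adjusted p = 0.682). SLC66A3 went the same way without reaching that level, from 8.03 and 8.18 to 7.79 and 7.85, a change of -0.28 (SE 0.15; interval -0.64 to 0.07). SLC66A2 had overlapping groups, at 7.47 and 7.46 in DMSO and 7.40 and 7.63 with IPA-3. SLC49A4 (DIRC2), another protein of the lysosomal membrane, also overlapped, with 7.79 and 7.84 in DMSO and 7.87 and 7.58 with IPA-3.

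The remaining 10 genes belong to the major facilitator superfamily, whose members bind cargo between a pair of bundles of membrane helices. Their changes with IPA-3 ran from -0.26 to 0.02. The lowest was that of SLC33A2 (MFSD3), a relative of the acetyl-CoA transporter of the endoplasmic reticulum, with values of 6.78 and 6.84 in DMSO and 6.73 and 6.37 with IPA-3. Its change of -0.26 (SE 0.14) thus rested mostly on IPA-3 2. SLC71A2 (MFSD14B) had a change of -0.24 (SE 0.14), with 10.65 and 10.72 in DMSO and 10.53 and 10.37 with IPA-3. Its close relative SLC71A1 (MFSD14A, first described as an abundant hippocampal transcript) had a change of -0.12 (SE 0.13). Both IPA-3 arrays also lay below both DMSO arrays for SLC60A1 (MFSD4A; change -0.17), SLC68A1 (MFSD13A; -0.14) and SLC75A1 (MFSD10, a tetracycline transporter-like protein; -0.12). SLC61A1 (MFSD5, a molybdate transporter homologue; -0.20), SLC60A2 (MFSD4B; -0.03), SLC67A2 (MFSD9; -0.02) and SLC49A3 (MFSD7; 0.02) had overlapping groups. SLC60A2 also carries the name NaGLT1, after a sodium-dependent glucose transporter, and lies outside the glucose families as numbered. Its values were 9.26 and 9.34 in DMSO and 9.33 and 9.21 with IPA-3, and the interval of its change was -0.32 to 0.25.

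With FRAX-597 the solute carriers lay on both sides of DMSO 3 and 4. At an adjusted p under 0.05 limma called 0 of 17, against 0.155% of all genes, and at an unadjusted p under 0.05 it found 0 of 17, against 7.66%. The latter count rose without IPA-3 1, IPA-3 2, DMSO 4, FRAX-597 1 or FRAX-597 2, fits in which the share of all genes was not computed. The median change was -0.0098, compared with -0.02 over all genes. Of the 17, 8 lay above 0 and 9 below, against 54.7% of all genes below. Both FRAX-597 arrays lay above both DMSO arrays for 3 of 17 (SLC49A4, SLC60A2 and SLC66A2), against 13% of all genes, and below them for SLC66A1 alone, against 17.8%.

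SLC49A4 had the highest change with FRAX-597 in the fit to all arrays, and SLC66A1 the lowest; pooling the DMSO arrays or leaving out DMSO 3, DMSO 4 or FRAX-597 2 put other genes at both ends, and leaving out FRAX-597 1 put SLC38A12 highest. SLC49A4 lay at 8.35 and 8.34 in DMSO 3 and 4 and at 8.58 and 8.61 with FRAX-597, so that the arrays of each group lay close together and the groups were apart. The log2 change was 0.25 (SE 0.12; interval -0.04 to 0.53; limma adjusted p = 0.748). SLC60A2 had values of 9.41 and 9.31 in DMSO and 9.67 and 9.44 with FRAX-597, a change of 0.20 (SE 0.12). SLC66A1 went from 8.66 and 8.77 to 8.65 and 8.21, a change of -0.29 (SE 0.15; interval -0.65 to 0.08). Its FRAX-597 1 array lay beside DMSO 3, so the difference rested on FRAX-597 2. Without FRAX-597 1 the change was -0.50, with an unadjusted p under 0.05 and an adjusted p of 0.364 in limma.

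SLC38A12 did not follow the treatment in the second set. It lay at 8.56 in DMSO 3 and 9.12 in DMSO 4, and at 8.49 in FRAX-597 1 and 9.16 in FRAX-597 2. One DMSO array and one FRAX-597 array were thus low and the others high, and the groups overlapped. The change was -0.0098 (SE 0.25; interval -0.59 to 0.58). FRAX-597 1 minus DMSO 3 was -0.07 and FRAX-597 2 minus DMSO 4 was 0.05. SLC25A15 had 7.60 and 7.72 in DMSO and 7.45 and 7.78 with FRAX-597, with overlapping groups and a change of -0.04 (SE 0.20). SLC25A2 ranged from 6.43 to 7.07 in DMSO and from 6.67 to 7.17 with FRAX-597, a change of 0.17 (SE 0.26). The other 11 genes had changes from -0.24 to 0.11, and none of the 11 except SLC66A2 (0.06) had groups apart.

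**Figure D2:**
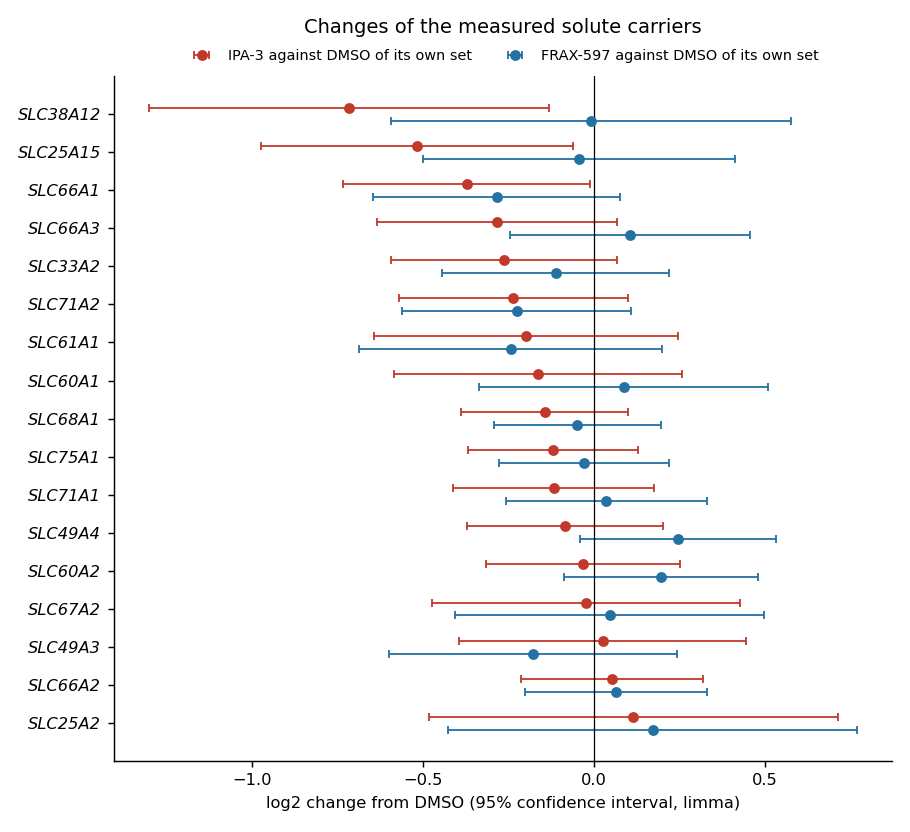
Log2 change of each of the 17 solute carriers with IPA-3 (red) and FRAX-597 (blue) against the DMSO arrays of the same set, with 95% confidence intervals from limma, ordered by the IPA-3 change. The IPA-3 intervals of SLC38A12, SLC25A15 and SLC66A1 end below 0 before adjustment over all genes, and every FRAX-597 interval spans 0.

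The difference between the compounds was tested as the FRAX-597 change minus the IPA-3 change, at different doses and each against its own controls. Limma called 0 of 17 solute carriers at an adjusted p under 0.05, against 0.0134% of all genes, and found 0 of 17 at an unadjusted p under 0.05, against 6.11%. The latter count rose without IPA-3 1, FRAX-597 1, DMSO 3 or DMSO 4, fits in which the share of all genes was not computed. The difference was above 0 for 15 of 17, with a median of 0.09, compared with 0.0093 over all genes. It was below 0 for 2 of 17, against 48.4% of all genes. For SLC38A12 it was 0.71 (SE 0.35; interval -0.12 to 1.54; limma adjusted p = 0.844), the highest of the 17 in the fit to all arrays but not in every alternative. It ran from 0.37 to 1.04 over the 15 alternatives. Without DMSO 3 it was 0.43, where SLC60A1 had 0.51. Without IPA-3 1 it was 0.64, where SLC25A15 had 0.71. With the DMSO arrays pooled it was 1.02, behind SLC33A2 (1.58), SLC25A15 (1.21) and SLC66A3 (1.19). With each compound against its own controls, the difference was 0.47 for SLC25A15 (SE 0.28, interval -0.17 to 1.12). For SLC66A3 it was 0.39 (SE 0.21, interval -0.11 to 0.89). For SLC66A1 the compounds differed by 0.09 (SE 0.22; interval -0.42 to 0.60), and for SLC71A2 by 0.01 (SE 0.20; interval -0.46 to 0.48). The intervals are wide relative to the changes, so neither a difference nor its absence is shown for these genes.

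The pairs of DMSO arrays differed in solute carrier levels as they did in most genes. DMSO 3 and 4 minus DMSO 1 and 2 gave a median of 0.48 over all genes, and all 17 solute carriers lay above 0. SLC33A2 stood furthest from that shift, with 6.78 and 6.84 in DMSO 1 and 2 and 8.32 and 8.16 in DMSO 3 and 4. Its difference of 1.43 was 0.95 above the median and lay at percentile 97.6 of all genes. SLC60A2 differed least, by 0.06, at percentile 19.2. The other 15 genes had differences from 0.18 to 0.83. Culture, processing and scale cannot be told apart here, since each pair lies in a set of its own.

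**Figure D3:**
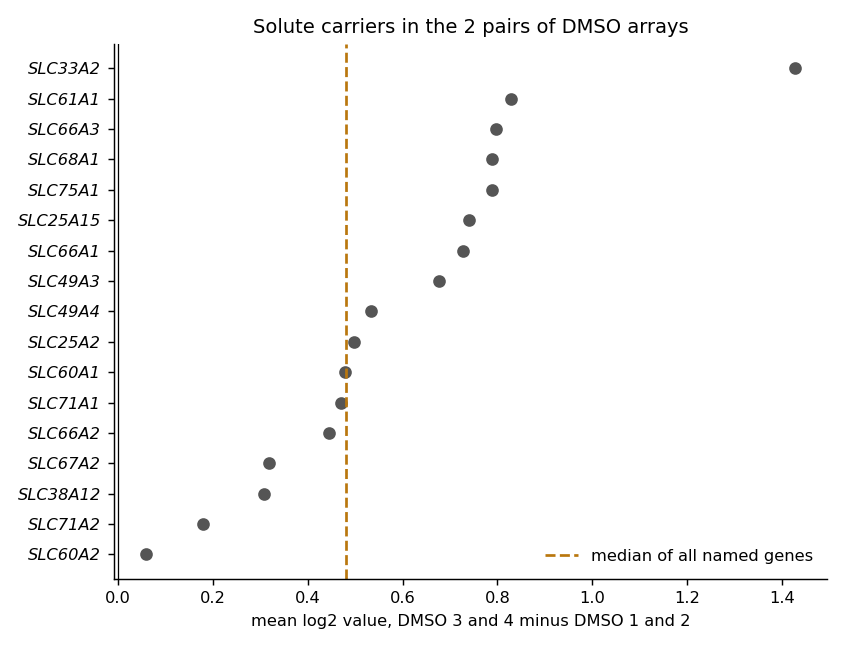
Difference of the mean log2 value between DMSO 3 and 4 and DMSO 1 and 2 for each solute carrier, with the median of all named genes dashed. SLC33A2, at 1.43, lies furthest to the right of the dashed line at 0.48, and SLC60A2, at 0.06, furthest to the left.

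The pathways that such carriers serve are described by counts and medians, without a test of the lists. Amino acid stress genes respond to ATF4, the factor that raises amino acid synthesis and import when supply falls, and 20 of 25 listed were among the named probes. With FRAX-597, 19 of the 20 lay above 0 and 1 below, against 54.7% of all genes below. The median was 0.82, and 14 were higher at an unadjusted p under 0.05, against 4.04% of all genes. Of these, DDIT4 alone rose at an adjusted p under 0.05 in limma (log2 change 2.12, SE 0.25; adjusted p = 0.0306). That call held in 9 of 16 alternatives, in which the change ran from 1.75 to 2.48 and the limma adjusted p from 0.00184 to 0.769. Fitting each set alone ended it, as did leaving out DMSO 4, FRAX-597 1 or any single array of the IPA-3 set. For ASNS, which makes asparagine, the change was 1.29 (SE 0.29; adjusted p = 0.237). With IPA-3 the median was 0.17, with 15 of 20 above 0 and 5 below, against 55.6% of all genes below. Limma called 0, and 2 were higher at an unadjusted p under 0.05, against 3.1% of all genes. SLC38A12, the 1 gene of the amino acid families, thus had its lower level with IPA-3 beside a median of these genes above 0.

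Of 20 listed genes of glucose use 11 were among the named probes, and limma called 0 for either compound. At an unadjusted p under 0.05 it found 3 for IPA-3, against 7.21% of all genes, and 1 for FRAX-597, against 7.66%. With IPA-3 the median was -0.15 and 8 of the 11 lay below 0, against 55.6% of all genes. LDHA, lactate dehydrogenase A, had a change of -0.39 with IPA-3 (SE 0.12; limma adjusted p = 0.57). ARRDC3 and ARRDC4, arrestin-like relatives of TXNIP, had changes with IPA-3 of 0.90 (SE 0.30; limma adjusted p = 0.609) and 1.08 (SE 0.42; adjusted p = 0.66). TXNIP, which restrains glucose uptake, lay lower on both IPA-3 arrays, with a change of -0.28 (SE 0.12; limma adjusted p = 0.695). Of 9 zinc handling genes 8 were among the named probes, with 0 called in limma. For each compound 1 of the 8 had an unadjusted p under 0.05, against 7.21% of all genes for IPA-3 and 7.66% for FRAX-597. The metallothionein MT1X had a change of -0.62 with IPA-3 (SE 0.13; adjusted p = 0.402) and MT1F of 0.39 with FRAX-597 (SE 0.13; adjusted p = 0.48). Glutathione supply depends on cystine uptake, and 5 of the 10 genes listed under it were among the named probes. They were SRXN1, HMOX1, GSR, TXNRD1 and GSS. With IPA-3, 4 of the 5 lay above 0 and 1 below, against 55.6% of all genes below. SRXN1, a reductase of oxidised peroxiredoxins, rose by 1.94 on the log2 scale (SE 0.14; limma adjusted p = 0.0108). That call held in 11 of 16 alternatives, in which the change ran from 1.40 to 2.05 and the limma adjusted p from 0.00267 to 0.546. Pooling the 4 DMSO arrays ended it, as did leaving out any single array of the IPA-3 set. Of the 5, 4 were higher at an unadjusted p under 0.05, against 3.1% of all genes. GSR, glutathione reductase, had a change of 1.47 (SE 0.25; adjusted p = 0.257). With FRAX-597 the same 5 had a median of -0.0029. Limma called 0 of them, against 0.155% of all genes, and found 0 at an unadjusted p under 0.05, against 7.66%. So few genes cannot show a lack of response.

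**Figure D4:**
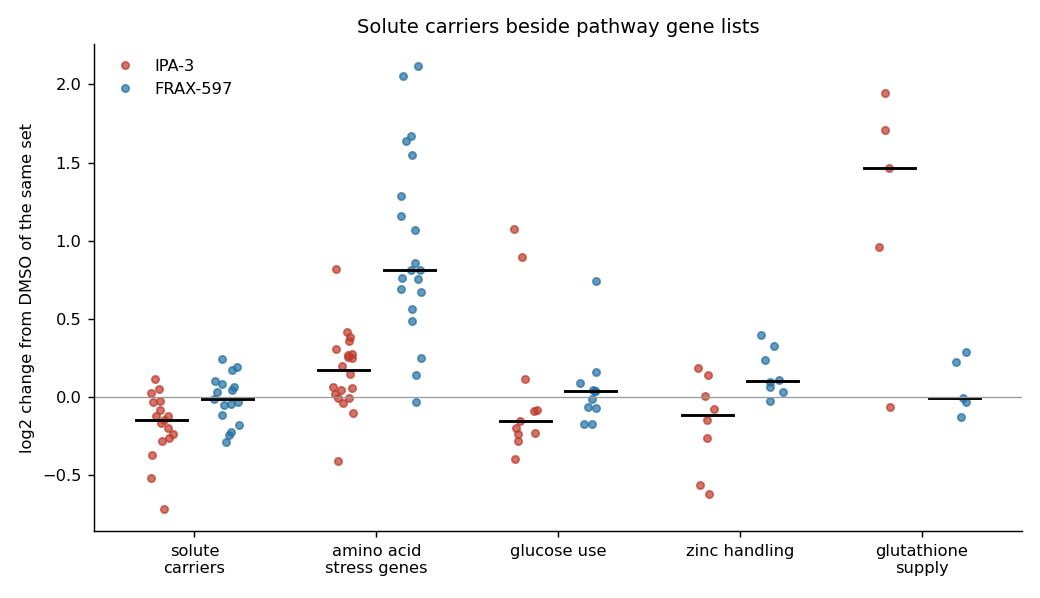
Log2 changes of the 17 solute carriers and of the measured genes of 4 pathway lists with IPA-3 (red) and FRAX-597 (blue), each point a gene and each bar the median. The solute carriers lie between -0.72 and 0.25. Amino acid stress genes with FRAX-597 have a median of 0.82. With IPA-3 the genes listed under glutathione supply (SRXN1, HMOX1, GSR, TXNRD1 and GSS) have a median of 1.47, and GSS lies at -0.06.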

How the data were processed

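The authors deposited log2 values of 53617 probes on 8 arrays, made with Affymetrix Expression Console and Transcriptome Analysis Console, per the submitters' processing notes. Their normalization and genome build are not given in the sources used here. Platform annotation names 1 gene for 16098 probes, several for 0 and none for 37519. For 779 genes with several probes, the probe with the highest mean was kept.

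One limma fit (version 3.58.1, R 4.3.3; lmFit and eBayes) had 4 groups: DMSO 1 and 2, IPA-3, DMSO 3 and 4, and FRAX-597. P-values were adjusted by Benjamini-Hochberg over 14884 genes. The fit was tested on simulated data. An exact permutation of 2 against 2 arrays cannot give a two-sided p under 0.333. The number of arrays limits the precision.

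Genes, lists and tests were chosen with earlier results of these data known, and the motifs after the values were seen. The naming rule took called genes, the largest changes per class and 26 transporters of known role, of which 0 were among the named probes; all 17 members are named beyond it. Alternatives covered controls, normalization, probes, filter, moderation, blocks and left-out arrays; applying them to DDIT4 and SRXN1 was chosen after seeing the data.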

Additional observations from a re-analysis of the deposited data

Results flagged for a closer look

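Among the 4 DMSO arrays, 2 of 17 solute carriers had 1 array far from the others, with a gap over the whole range above Dixon's 95% critical value. SLC38A12 was high in DMSO 4, at 9.12 against 8.48 to 8.58 in the other arrays, a ratio of 0.834. SLC71A2 was high in DMSO 3, at 11.04 against 10.65 to 10.72, also a ratio of 0.834. Chance gives about 1 in 20 such groups, or 0.85 of 17, and the 4 arrays also span 2 sets of different scale, whose part in these gaps was not tested. The SLC71A2 change with FRAX-597 was -0.23 (SE 0.14; limma adjusted p = 0.837); without DMSO 3 it was -0.05 (adjusted p = 0.965) and without DMSO 4 -0.40 (adjusted p = 0.593).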

How the results depend on the processing

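Counts of solute carriers at an adjusted or unadjusted p under 0.05 were recomputed under 16 alternatives. So were the median changes with each compound for the amino acid families, the mitochondrial family and all 17. The difference between compounds has no value when each set is fitted alone, and the glucose and zinc medians have no gene. Counts of groups that lay apart, and the counts and medians of the 4 pathway lists, were not recomputed. Of these 190 values 168 stayed within the spread between arrays, or, for counts, within 1.5 times. Many medians could not move. Fitting each set alone, the probe mean, the dim-probe filter, the moderation and the block leave each member's change with a compound as it was. So does leaving out an array of the other set. The 168 is therefore no measure of how firmly the results hold. Of 799 changes of single genes, 1 passed an adjusted p under 0.05. This was SLC38A12 with IPA-3, stronger under the replicate block (-0.72, limma adjusted p = 0.0382). The block thus made 1 solute carrier called for IPA-3. It also gave 2 at an unadjusted p under 0.05 for the difference between compounds. With the block, limma called more of all genes for that difference than without it. The share of all genes at the unadjusted p was not computed for the block. The 2 therefore cannot be read as a result about solute carriers. The block changed no other call among the 17; its pairs correlated at 0.655 over genes in the second set, and the like value in the first was -0.0586. With the 4 DMSO arrays pooled, the IPA-3 medians moved to -0.87 (amino acid), -0.51 (mitochondrial) and -0.40 (all 17), and the FRAX-597 medians to 0.37 (mitochondrial) and 0.29 (all 17), beside -0.26 and 0.23 over all genes; 17 of 17 changes then lay below 0 with IPA-3, against 82% of all genes, and 1 of 17 with FRAX-597, against 21.8%. The pooled fit gave 1 gene at an unadjusted p under 0.05 for FRAX-597 and 10 for the difference. In that fit the DMSO arrays cancel from the difference, which then compares FRAX-597 arrays directly with IPA-3 arrays of the other set. Its median over all genes was 0.49, with 16.5% of all genes below 0. The share of all genes at that unadjusted p was not computed, so the 10 cannot be read as a result about solute carriers. With 1 array left out, a lone array is assumed to vary like the others. The count at an unadjusted p under 0.05 then moved for both compounds and for their difference. For IPA-3 it fell without any single DMSO or IPA-3 array and rose without either FRAX-597 array. The share of all genes in those fits was not computed. Over the fits with 1 array left out, the FRAX-597 median over all 17 ran from -0.0648 to 0.0591. With IPA-3, 13 to 17 of the 17 changes lay below 0 over the 16 alternatives (at most 15 without pooling), and the change of SLC38A12 ran from -0.87 to -0.64.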
